A study of Mus musculus with 2 samples.

Results

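The 10 genes described here code for 6 Eph receptors and 4 ephrins, namely the A class receptors Epha3, Epha4, Epha5 and Epha7, the B class receptors Ephb1 and Ephb2, the A class ephrins Efna2 and Efna5, and the B class ephrins Efnb1 and Efnb2. They were chosen by symbol, and each symbol matched 1 gene entry among the 28001 of a library of septal explants and 1 among the 32286 of a library of telencephalic vesicle. Together they held 31463 transcript molecules in the first library and 313455 in the second. The other 12 genes of the family were kept as a list for comparison.

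The septal explants came from 8 embryos carrying PGKCre;Rosa26YFP, in which a broadly active promoter drives Cre so that a yellow fluorescent reporter can mark the cells, at E11.5, and from 4 embryos carrying Dbx1Cre;Rosa26tdTomato, in which the red reporter follows cells with a history of Dbx1 expression, at E12.5. Embryos of each genotype came from 2 litters, and all were pooled in 1 library. The telencephalic vesicle library pooled 3 wild-type embryos of 2 litters, labelled E12. Both are labelled wild-type and C57BL/6J, and the embryos inside a pool cannot be told apart.

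Eph receptors are receptor tyrosine kinases, and ephrins are their membrane-bound ligands, anchored by a lipid in the A class and by a transmembrane segment in the B class. Because both partners sit on cell surfaces they signal where cells touch, and in both directions, which is known to drive repulsion or adhesion between cell populations. In the embryonic forebrain they are known for keeping neighbouring territories apart, for guiding axons between thalamus, cortex and striatum, and for sorting cells within cortical columns.

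All values are unique molecular identifiers (UMIs, 1 per captured transcript molecule) summed over the cells of a class and given as counts per 1e6 UMIs of that class (CPM). After filters 5384 of 5827 barcodes of the explants and 11758 of 14283 of the vesicle remained, with a median of 12868.5 and 9058.5 UMIs per cell. Each condition had 1 library, so no test between conditions was possible. A ratio of 2 classes carries its exact 95% interval, which covers counting error only and not the difference between embryos. A gene was called past the 2-fold line at a ratio of at least 2 or at most 0.5 with at least 50 UMIs in both classes together.

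Clusters were named by markers, with the ending "-like", as apical progenitors (APs) of the pallium, ventral pallium (VP), septum, subpallium and cortical hem, basal progenitors (BPs) and neuron classes. Within the subpallium some clusters carried markers of the lateral (LGE) or medial (MGE) ganglionic eminence. Further clusters, called APs without a regional likeness, were not given a region and entered no comparison of classes. They made up 1536 cells of the explants and 713 of the vesicle. Some held few AP markers. An explant cluster of 264 cells had 1 of 9, and a vesicle cluster of 297 cells, led by Ttr and Htr2c, had 2 of 9. The Eph and ephrin genes took no part in the clustering. Markers of telencephalic regions were present in both libraries, and the vesicle also held 493 cells that resembled mesenchyme, 22 that resembled endothelium, 400 erythroid-like and 73 macrophage-like cells, the explants 26 erythroid-like and 44 macrophage-like cells. The libraries shared 1 barcode. In the erythroid-like cells of the vesicle, which should lack these genes and had a median of 5428.5 UMIs, between 1.25% and 5.50% of cells held a UMI of a given member, with levels from 2.08 CPM for Efna2 to 20.1 CPM for Epha3. The 26 erythroid-like cells of the explants, with a median of 29045.5 UMIs, held 35.7 CPM of Efnb1, 13.7 CPM of Efna5, 10.97 CPM of Epha4 and 8.23 CPM of Ephb2, the other members lying between 0 and 4.12 CPM.

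Levels were never compared between the libraries. They differed in kit, Cell Ranger version, age and dissection, and the ratio of vesicle to explant CPM moved with the span of the gene. Its median over 8902 genes was -0.56 on the log2 scale in the 1781 genes with the shortest spans and 1.47 in the 1781 with the longest. Most members have long genes. Epha3 spans 320.6 kb, only 8.69 kb of it exonic, and stood at 421 CPM over all kept vesicle cells and 9.06 CPM over the explants, a log2 ratio of 5.54. Efnb1, which spans 12.9 kb, had a log2 ratio of -0.26. Whether reads from introns were counted in the later library was not tested.

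The members lie on several chromosomes of GRCm38, the build that mm10 corresponds to. Ephb1 has the longest gene, chr9:101922128-102354693 on the minus strand, and 9 other annotated genes overlap it, 3 of them on its own strand. Epha3 lies at chr16:63543534-63864175 and Epha5 at chr5:84054761-84417382, both on the minus strand. Efna5 lies at chr17:62604184-62881317 on the minus strand and Efnb1 at chrX:99136130-99148991 on the plus strand.

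Promoters are shown for 4 members whose regional or neuronal levels are described at length, as 250 bases before and 50 bases after the annotated start, taken from RefSeq on GRCm38.p6 and written 5′ to 3′ on the strand of the gene. The core letters of a homeodomain site, TAATTA, were searched on both strands and are set in capitals. Epha3 and Epha5, A class receptors that were higher in pallial neurons than in pallial-like APs, come first (chr16:63864126-63864425 and chr5:84417333-84417632). Ephb1 and Efna5, which were higher in subpallial-like than in pallial-like APs, follow (chr9:102354644-102354943 and chr17:62881268-62881567). All are on the minus strand.
Epha3: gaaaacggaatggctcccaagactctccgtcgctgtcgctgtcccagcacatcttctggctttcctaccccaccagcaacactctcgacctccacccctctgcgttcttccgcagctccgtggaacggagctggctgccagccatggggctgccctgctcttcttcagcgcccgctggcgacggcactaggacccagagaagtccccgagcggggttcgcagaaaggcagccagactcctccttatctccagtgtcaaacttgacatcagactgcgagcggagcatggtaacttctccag
Epha5: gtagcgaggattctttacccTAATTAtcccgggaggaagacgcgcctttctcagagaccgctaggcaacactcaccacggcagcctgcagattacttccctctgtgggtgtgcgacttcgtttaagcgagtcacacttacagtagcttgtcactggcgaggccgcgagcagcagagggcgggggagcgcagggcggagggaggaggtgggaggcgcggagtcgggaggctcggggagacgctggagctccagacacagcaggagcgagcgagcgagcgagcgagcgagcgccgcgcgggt
Ephb1: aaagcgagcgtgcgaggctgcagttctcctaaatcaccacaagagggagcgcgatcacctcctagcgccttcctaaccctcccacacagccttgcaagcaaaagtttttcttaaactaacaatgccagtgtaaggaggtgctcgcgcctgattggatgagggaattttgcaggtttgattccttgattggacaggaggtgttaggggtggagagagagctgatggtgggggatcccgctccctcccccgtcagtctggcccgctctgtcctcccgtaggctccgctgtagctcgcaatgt
Efna5: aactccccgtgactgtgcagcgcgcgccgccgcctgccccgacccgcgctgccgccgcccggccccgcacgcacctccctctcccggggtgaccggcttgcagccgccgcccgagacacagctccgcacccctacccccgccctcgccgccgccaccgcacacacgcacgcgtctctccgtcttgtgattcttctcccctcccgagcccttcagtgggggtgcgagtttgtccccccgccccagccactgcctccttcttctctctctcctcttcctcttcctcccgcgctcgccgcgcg
TAATTA was found in 1 of the 10 members' promoters, that of Epha5, and in 5.29% of 32851 promoters of the same length. CAGATG and CAGCTG, core letters of sites for bHLH factors, were found in 0 of the 10, against 17.2% and 16.3% of all promoters. The G and C content was 60.7% in Epha3, 64.3% in Epha5, 55.7% in Ephb1 and 73.3% in Efna5, beside a median of 52.7% over all promoters. These matches describe letters in the window and were not tested as sites.

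Over 21 comparisons of classes, 201 pairs of a member and a comparison had enough UMIs, and 72 were past the 2-fold line, 36 in each library. Of these, 39 stayed past it in the same direction under every alternative in clustering, filtering and scaling that gave a value, apart from those added after seeing the data. Epha5 gave 6 of these in the explants and 4 in the vesicle, Epha3 1 and 6, Ephb1 2 and 4, and Efnb1 4 and 2. Efna2 was past the line in 0 of 21 comparisons, Ephb2 in 1 and Epha7 in 1. Several comparisons share the pallial-like APs, the subpallial-like APs or the hem-like cells as their reference, so their values are given side by side and not as separate evidence.

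**Figure D1:**
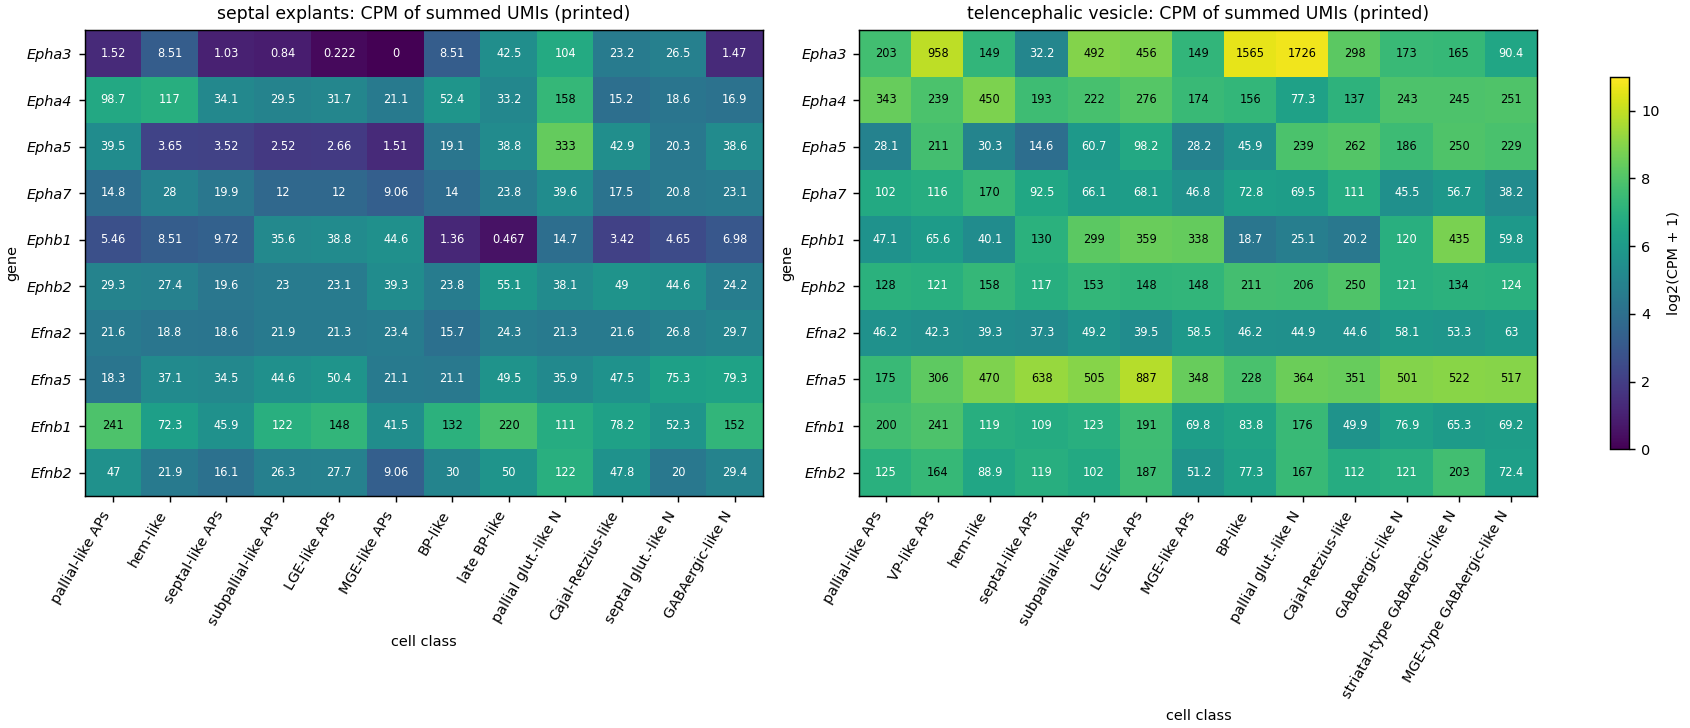
CPM of summed UMIs (printed) of the 10 members in each cell class of the septal explants (left) and the telencephalic vesicle (right), with log2(CPM + 1) as colour; colours are to be read along a gene, not between genes or libraries. Epha3 reaches 1726 CPM in the pallial glutamatergic-like neurons of the vesicle, Ephb1 is high in subpallial-like APs of both libraries, and Efna2 is nearly even.

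Region by region, the first question was how far progenitors of different territories differ in these genes. Subpallial-like APs against pallial-like APs had 4 of 9 members past the line in the explants, where 7.48% of the 10822 tested genes were past it, and 4 of 10 in the vesicle, where the background was 9.49%. Septal-like APs against pallial-like APs had 4 of 9 in the explants, all lower, beside 9.45% of all genes, and 3 of 10 in the vesicle beside 9.47%. The median log2 ratio of the members in the septal comparison was -0.58 in the explants and -0.22 in the vesicle, while that of all genes was 0.02 and 0.07.

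Hem-like cells against pallial-like APs had 4 of 9 members past the line in the explants, with 8.68% of all genes, and 1 of 10 in the vesicle, with 10.3%. VP-like APs, found only in the vesicle clustering, had 2 of 10 past the line against pallial-like APs, with a background of 6.31%. LGE-like against MGE-like APs had 3 of 8 in the explants beside 6.59% and 5 of 10 in the vesicle beside 5.16%, every one of them higher in the LGE-like APs. The members' median log2 ratio in that vesicle comparison was 1.01, beside 0.05 for all genes.

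**Figure D2:**
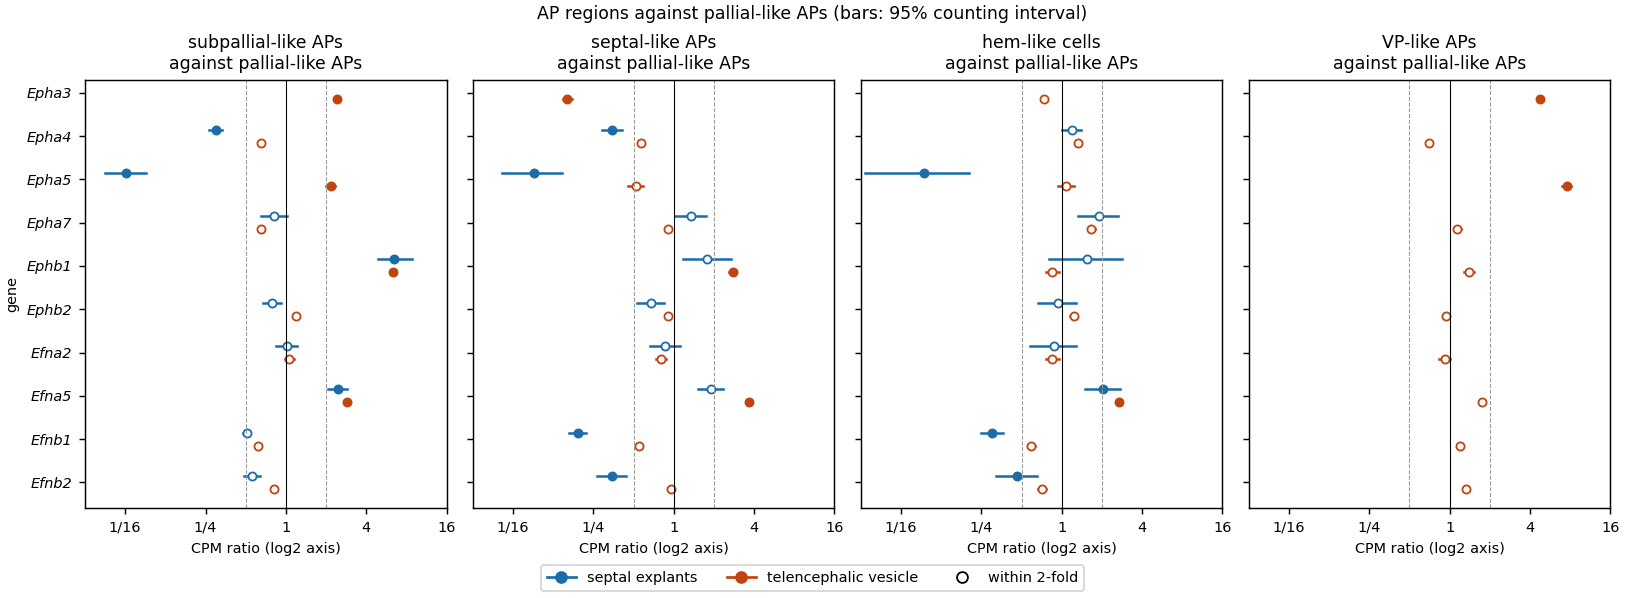
CPM ratio (log2 axis) of each member in 4 AP regions against pallial-like APs, for the septal explants (blue) and the telencephalic vesicle (orange), with 95% counting intervals as bars; filled points are past the 2-fold line (dashed) and members with fewer than 50 UMIs are left out. Ephb1 is 6.51-fold and 6.35-fold higher in subpallial-like APs, and Epha5 lies on opposite sides of 1 there.

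Along differentiation the backgrounds were higher, since neurons and progenitors differ in many genes. BP-like cells against pallial-like APs had 2 of 9 members past the line in the explants, with 13.9% of all genes, and 4 of 10 in the vesicle, with 18.4%. Pallial glutamatergic-like neurons against pallial-like APs had 6 of 10 in the explants, with 31.5%, and 4 of 10 in the vesicle, with 39.0%. The vesicle share is thus close to that of all genes. Septal glutamatergic-like neurons against septal-like APs, compared in the explants, had 5 of 10 beside 27.3%.

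GABAergic-like neurons against subpallial-like APs had 2 of 9 in the explants, with 28.6%, and 3 of 10 in the vesicle, with 32.2%, so neither share exceeded that of all genes. Cajal-Retzius-like cells, early neurons of the marginal zone, had 4 of 9 past the line against hem-like cells in the explants, with 25.7%, and 4 of 10 in the vesicle, with 22.9%. Between neuron classes, GABAergic-like against septal glutamatergic-like neurons in the explants had 2 of 9 with 7.84%, and GABAergic-like against pallial glutamatergic-like neurons in the vesicle had 4 of 10 with 10.0%. Striatal-type against MGE-type GABAergic-like neurons of the vesicle had 2 of 10, also with 10.0%. The explant counts for Cajal-Retzius-like cells and between neuron classes also include Epha3, which passed the filter through the class where it was higher.

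Epha3, a receptor that binds A class ephrins and is known from axon guidance, was highest in pallial neurons of both libraries. In the explants it stood at 1.52 CPM in pallial-like APs (15 UMIs), 8.51 CPM in BP-like cells, 42.5 CPM in late BP-like cells, a further cluster with BP markers that lay nearer to neurons in its ratio of neuronal to AP genes, and 104 CPM in pallial glutamatergic-like neurons. The ratio of these neurons to pallial-like APs was 68.7 (40.3 to 126). It lay between 29.5 and 97.1 over 9 alternatives. Septal glutamatergic-like neurons held 26.5 CPM and GABAergic-like neurons 1.47 CPM, the latter from 4 UMIs.

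In the vesicle Epha3 stood at 203 CPM in pallial-like APs, 1565 CPM in BP-like cells and 1726 CPM in pallial glutamatergic-like neurons. BP-like cells were 7.72-fold (7.47 to 7.98) and neurons 8.51-fold (8.23 to 8.80) above pallial-like APs, and both stayed past the line under every alternative that gave a value. These ratios do not extend to the VP-like APs, whose 2 clusters held 618 and 1243 CPM. As a class the VP-like APs lay less than 2-fold below the BP-like cells and the neurons. GABAergic-like neurons, at 173 CPM, had 0.10 times (0.0936 to 0.107) the level of pallial glutamatergic-like neurons.

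Among vesicle APs, Epha3 was highest in the VP-like APs at 958 CPM, 4.72-fold (4.58 to 4.87) above pallial-like APs. Among them it was lowest in septal-like APs at 32.2 CPM, close to the 20.1 CPM of the erythroid-like cells of the vesicle. The septal ratio was 0.159 (0.147 to 0.172), and 0.494 without cluster 2, the deeper of 2 pallial-like clusters. Subpallial-like APs stood at 492 CPM with a ratio of 2.43 (2.36 to 2.5), which was past the line in 3 of 9 alternatives and turned to 0.863 with the called doublets kept. Cluster 21 carried most of that level, with 1249 CPM in 616 cells, and without it the ratio was 1.32. The markers of this cluster were Gsx1, Olig2 and Nkx6-2, and its leading genes included Mctp1, Igfbp5, Dach2, Hhip and Fst. The other 4 clusters of the class lay between 138 and 456 CPM. The 2 pallial-like clusters also differed, at 305 and 65.2 CPM.

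Epha5, a neuronal A class receptor, separated APs of the explants most sharply. Pallial-like APs held 39.5 CPM, subpallial-like APs 2.52 CPM, septal-like APs 3.52 CPM and hem-like cells 3.65 CPM. The ratios to pallial-like APs were 0.0638 (0.0440 to 0.0898), 0.0890 (0.0513 to 0.144) and 0.0923 (0.0337 to 0.203), and all 3 held under 9 of 9 alternatives. The pallial level was itself uneven. Cluster 25 (301 cells) had 69.1 CPM and cluster 8 (248 cells) had 11.3 CPM, and the subpallial ratio without cluster 25 was 0.224. The classes were also not matched for genotype and age. Among cells with at least 3 YFP UMIs and no tdTomato UMI, 201 pallial-like APs held 13.5 CPM. In that set 573 subpallial-like APs held 2.85 CPM and 182 septal-like APs 4.13 CPM, a smaller contrast in the same direction. The part of genotype and age in the ratios of whole classes was not tested.

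In the vesicle the order of Epha5 among APs was different. VP-like APs were highest at 211 CPM, 7.52-fold (6.94 to 8.15) above the 28.1 CPM of pallial-like APs, a call that held under 9 of 9 alternatives. LGE-like APs held 98.2 CPM and MGE-like APs 28.2 CPM, a ratio of 3.48 (3.13 to 3.87). Subpallial-like APs as a whole were 2.16-fold (1.99 to 2.34) above pallial-like APs, on the opposite side from the explants, but only in 3 of 9 alternatives was this past the line, and it was 1.45 in the weakest case of leaving out 1 cluster.

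Neuron classes had more Epha5 than the AP or hem-like class each was compared with. In the explants pallial glutamatergic-like neurons reached 333 CPM, 8.42-fold (7.34 to 9.67) above pallial-like APs, and GABAergic-like neurons 38.6 CPM, 15.3-fold (10.4 to 23.0) above subpallial-like APs. The vesicle ratios were 8.49 (7.76 to 9.30) and 3.07 (2.86 to 3.29). The pallial ratio does not extend to the VP-like APs, whose 2 clusters, at 115 and 292 CPM, lay on either side of the 239 CPM of these pallial neurons. Cajal-Retzius-like cells exceeded hem-like cells 11.8-fold (5.24 to 32.7) in the explants and 8.64-fold (7.48 to 10.0) in the vesicle. Of these, the pallial neuron ratio of the vesicle was inside the line in 1 of 8 alternatives, at 1.94. The explant Cajal-Retzius call did not reach 50 UMIs without cluster 9, where the ratio was 5.50. Septal glutamatergic-like neurons, 5.76-fold above septal-like APs, lost the call without cluster 27 (1.44).

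Epha4, which binds ephrins of both classes, was higher in pallial-like APs and hem-like cells than in the other AP regions. It stood at 98.7 CPM in pallial-like APs and 117 CPM in hem-like cells of the explants, and at 34.1 CPM in septal-like and 29.5 CPM in subpallial-like APs. The ratios of the last 2 to pallial-like APs were 0.346 (0.291 to 0.408) and 0.298 (0.266 to 0.335), and held under 9 of 9 alternatives. In the vesicle the hem-like cells were again highest with 450 CPM, followed by pallial-like APs with 343 CPM. There the subpallial ratio of Epha4 was 0.647 (0.629 to 0.666) and the septal ratio 0.564 (0.544 to 0.584), inside the 2-fold line.

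Cajal-Retzius-like cells had far less Epha4 than hem-like cells, with a ratio of 0.129 (0.0897 to 0.183) in the explants and 0.303 (0.265 to 0.346) in the vesicle. Pallial neurons differed between the libraries. In the vesicle they held 77.3 CPM of Epha4, 0.226 times (0.204 to 0.249) the level of pallial-like APs, whereas in the explants they held 158 CPM, a ratio of 1.60 (1.37 to 1.85).

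Epha7, another A class receptor, varied less. Across vesicle classes it lay between 38.2 CPM in MGE-type GABAergic-like neurons and 170 CPM in hem-like cells, and it was past the line in 0 of 11 comparisons. In the explants the range was 9.06 to 39.6 CPM, with pallial glutamatergic-like neurons 2.68-fold (1.93 to 3.69) above pallial-like APs. Mesenchyme-like cells of the vesicle held 352 CPM, above each named neural class, and 70.2% of them held a UMI.

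Ephb1, a B class receptor known from the optic chiasm and cortical interneurons, was highest in subpallial-like APs among the AP regions named. In the explants it stood at 35.6 CPM in subpallial-like APs, 9.72 CPM in septal-like APs, 8.51 CPM in hem-like cells and 5.46 CPM in pallial-like APs. In the vesicle the values were 299, 130, 40.1 and 47.1 CPM. The explant clusters of APs without a regional likeness ranged from 2.08 to 68.5 CPM, the highest being a cluster of 75 cells led by Nkx2-1. Subpallial-like APs were 6.51-fold (4.91 to 8.79) above pallial-like APs in the explants and 6.35-fold (6.00 to 6.73) in the vesicle.

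The Ephb1 ratio kept its side of the line under 9 of 9 alternatives in each library, from 5.42 to 7.99 and from 6.41 to 7.93, and without any single cluster, where the weakest values were 4.30 and 5.25. After each cell was thinned to the same number of UMIs, a UMI of Ephb1 was found in 22.0% of the subpallial-like APs of the explants and in 4.10% of those of the pallium. LGE-like and MGE-like APs had similar levels, with a ratio of 0.871 (0.645 to 1.19) in the explants and 1.06 (1.02 to 1.11) in the vesicle. Septal-like APs of the vesicle were 2.76-fold (2.58 to 2.94) above pallial-like APs, and those of the explants 1.78-fold (1.18 to 2.68).

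Neurons of the subpallial lineage held less Ephb1 as a class. GABAergic-like neurons had 0.196 times (0.117 to 0.310) the level of subpallial-like APs in the explants, and 0.403 times (0.373 to 0.434) in the vesicle. The vesicle call was lost without either of 2 clusters of these neurons, with 0.580 as the weakest value, and the neurons were not alike. The striatal-type cluster of 121 cells held 435 CPM, the MGE-type cluster of 369 cells 59.8 CPM and the third cluster of 305 cells 22.3 CPM. The striatal-type to MGE-type ratio was 7.27 (6.09 to 8.72) and was past the line in 7 of 9 alternatives, although with the cell cycle genes kept in the clustering it was 0.274. BP-like cells were low in both libraries, with 1.36 CPM from 4 UMIs in the explants and 18.7 CPM in the vesicle.

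Ephb2, the other B class receptor of the set, was present in every neural class with little contrast. It ranged from 117 to 250 CPM in the vesicle and from 19.6 to 55.1 CPM in the explants, where late BP-like cells, Cajal-Retzius-like cells (49.0 CPM) and septal glutamatergic-like neurons (44.6 CPM) were highest. The one call, septal glutamatergic-like neurons at 2.27-fold (1.75 to 2.96) above septal-like APs, was past the line in 3 of 9 alternatives.

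**Figure D3:**
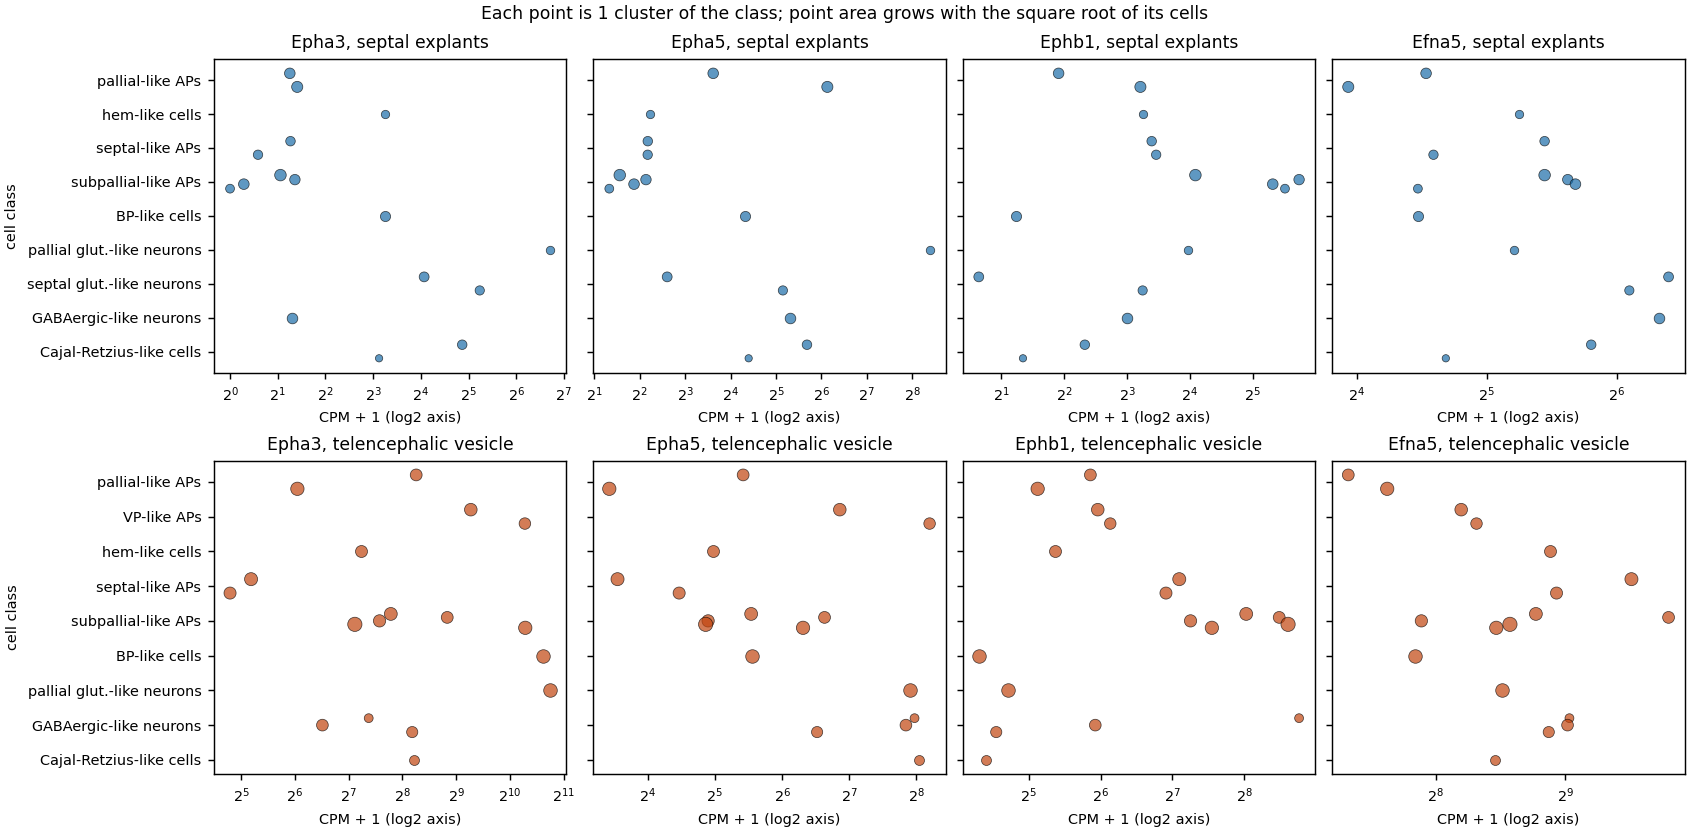
CPM + 1 (log2 axis, not from 0) of Epha3, Epha5, Ephb1 and Efna5 in each cluster of each class, in the septal explants (top) and the telencephalic vesicle (bottom), with 1 point per cluster. In the vesicle the 5 subpallial-like clusters of Epha3 run from 138 to 1249 CPM, whereas those of Ephb1 all lie above the pallial-like clusters.

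Among the ligands of the A class receptors, Efna2 was nearly even. It lay between 15.7 and 29.7 CPM over the classes of the explants and between 37.3 and 63.0 CPM over those of the vesicle, a highest to lowest fold of 1.90 and 1.69.

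Efna5, an A class ephrin known from topographic maps, was lowest in pallial-like APs of both libraries, at 18.3 CPM in the explants and 175 CPM in the vesicle. The explant level was close to the 13.7 CPM of Efna5 in the erythroid-like cells of that library. Septal-like APs of the vesicle held 638 CPM, 3.64-fold (3.53 to 3.76) above pallial-like APs, which held under 9 of 9 alternatives. In the explants the same ratio was 1.89 (1.52 to 2.34). Subpallial-like APs were 2.44-fold (2.06 to 2.89) above pallial-like APs in the explants and 2.88-fold (2.79 to 2.97) in the vesicle, calls that held in 3 of 9 and 7 of 9 alternatives, with lowest values of 1.11 and 1.89.

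Among subpallial-like APs Efna5 was higher in LGE-like than in MGE-like APs, with 887 CPM in the vesicle against 348 CPM in MGE-like APs, a ratio of 2.55 (2.47 to 2.63), and 50.4 against 21.1 CPM in the explants, a ratio of 2.38 (1.60 to 3.66). GABAergic-like neurons were the highest class of the explants for Efna5 at 79.3 CPM, 1.78-fold (1.52 to 2.08) above subpallial-like APs, whereas in the vesicle the ratio was 0.992 (0.954 to 1.03). Mesenchyme-like cells reached 1052 CPM.

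The B class ephrins Efnb1 and Efnb2 were higher in pallial-like than in septal-like APs of the explants. Efnb1 stood at 241 CPM in pallial-like APs, 122 CPM in subpallial-like APs, 72.3 CPM in hem-like cells and 45.9 CPM in septal-like APs. The septal ratio was 0.190 (0.165 to 0.218) and the hem ratio 0.30 (0.247 to 0.360), both past the line in 9 of 9 alternatives. The septal level was close to the 35.7 CPM of Efnb1 in the erythroid-like cells of the explants. Efnb2 had 47.0 CPM in pallial-like and 16.1 CPM in septal-like APs, a ratio of 0.343 (0.266 to 0.437) that also held in 9 of 9. In the vesicle the septal ratios were 0.546 (0.521 to 0.572) for Efnb1 and 0.957 (0.911 to 1.01) for Efnb2, inside the line.

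Both ephrins were higher in LGE-like than in MGE-like APs. In the vesicle Efnb1 stood at 191 against 69.8 CPM, a ratio of 2.74 (2.56 to 2.94), and Efnb2 at 187 against 51.2 CPM, a ratio of 3.65 (3.38 to 3.95). The explant ratios were 3.56 (2.70 to 4.78) and 3.06 (1.69 to 6.08), with 41.5 CPM of Efnb1 in MGE-like APs, a level also close to that of the erythroid-like cells. Each of these LGE comparisons could be computed under only 4 alternatives, because re-clustering often left no cluster with that name. In the vesicle LGE-like APs were 1 cluster of 386 cells with a median of 17460.5 UMIs. A neighbouring cluster of subpallial-like APs had a median of 8978.0. Nkx6-2, an MGE marker, was among its leading genes and kept it from that name, although Nkx6-2 also marked the LGE-like cluster. The neighbouring cluster held 110 CPM of Efnb1, 91.0 CPM of Efnb2, 436 CPM of Efna5 and 45.5 CPM of Epha5. These levels lay between those of the MGE-like and LGE-like APs. The part of depth was not tested.

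Between pallial-like APs and pallial glutamatergic-like neurons of the explants the 2 ephrins differed in opposite directions. Pallial glutamatergic-like neurons had 2.59-fold (2.16 to 3.10) more Efnb2 than pallial-like APs, at 122 CPM, and 0.459 times (0.387 to 0.541) the Efnb1, at 111 CPM. BP-like cells of the vesicle held 0.419 times (0.382 to 0.458) the Efnb1 of pallial-like APs, and 0.517 times without cluster 2. GABAergic-like neurons of the explants held 152 CPM of Efnb1, 2.90-fold (2.44 to 3.46) above septal glutamatergic-like neurons, a ratio that was 2.0 and just under the line without cluster 4.

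A view that does not use cluster borders within a lineage placed its cells in 5 bins of equal cell number, from AP-like to neuronal. The order followed the ratio of neuronal to AP genes. Cells of a lineage were picked by class name, the hem lineage being the hem-like and Cajal-Retzius-like cells. The bins therefore overlap with the class comparisons above, and descent within a lineage was not tested. The subpallial lineage left out clusters named subpallial-like differentiating cells, with 171 cells in the explants and 643 in the vesicle. By their median ratio of neuronal to AP genes these lay between its APs and neurons, so its middle bins lack them. The explant pallial lineage left out the 201 late BP-like cells. In the hem lineage Epha4 went from 124 CPM in the first to 13.5 CPM in the last bin of the explants, and from 484 to 87.0 CPM in the vesicle. Epha5 went the other way, from 2.87 to 74.3 CPM and from 21.0 to 401 CPM. At the neuronal end of these cells Epha4 was thus lower and Epha5 higher in both libraries. The last to first ratios were 0.109 and 0.180 for Epha4 and 25.9 and 19.1 for Epha5. The Epha4 level in the last bin of the explants was close to the 10.97 CPM of their erythroid-like cells.

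In the pallial lineage of the explants Epha3 went from 2.06 to 63.2 CPM and Efnb1 from 253 to 114 CPM. Efnb2 there went from 47.8 to 81.5 CPM, a ratio of 1.71 inside the 2-fold line. In the vesicle, where the first bin also holds VP-like APs, Epha3 went from 721 to 1675 CPM and Epha4 from 250 to 66.2 CPM. Epha5 in that lineage went only from 176 to 224 CPM, a ratio of 1.27. The vesicle ratios of Efnb1 and Efnb2 were 0.732 and 1.04, also inside the line. The septal lineage had 1.93 and 33.0 CPM of Epha3 in its first and last bins. In the subpallial lineage Ephb1 went from 36.8 to 6.87 CPM in the explants and from 256 to 124 CPM in the vesicle, with its highest value in a middle bin. With 10 bins the last to first ratio of Ephb1 in the vesicle was 0.748 in place of 0.484.

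**Figure D4:**
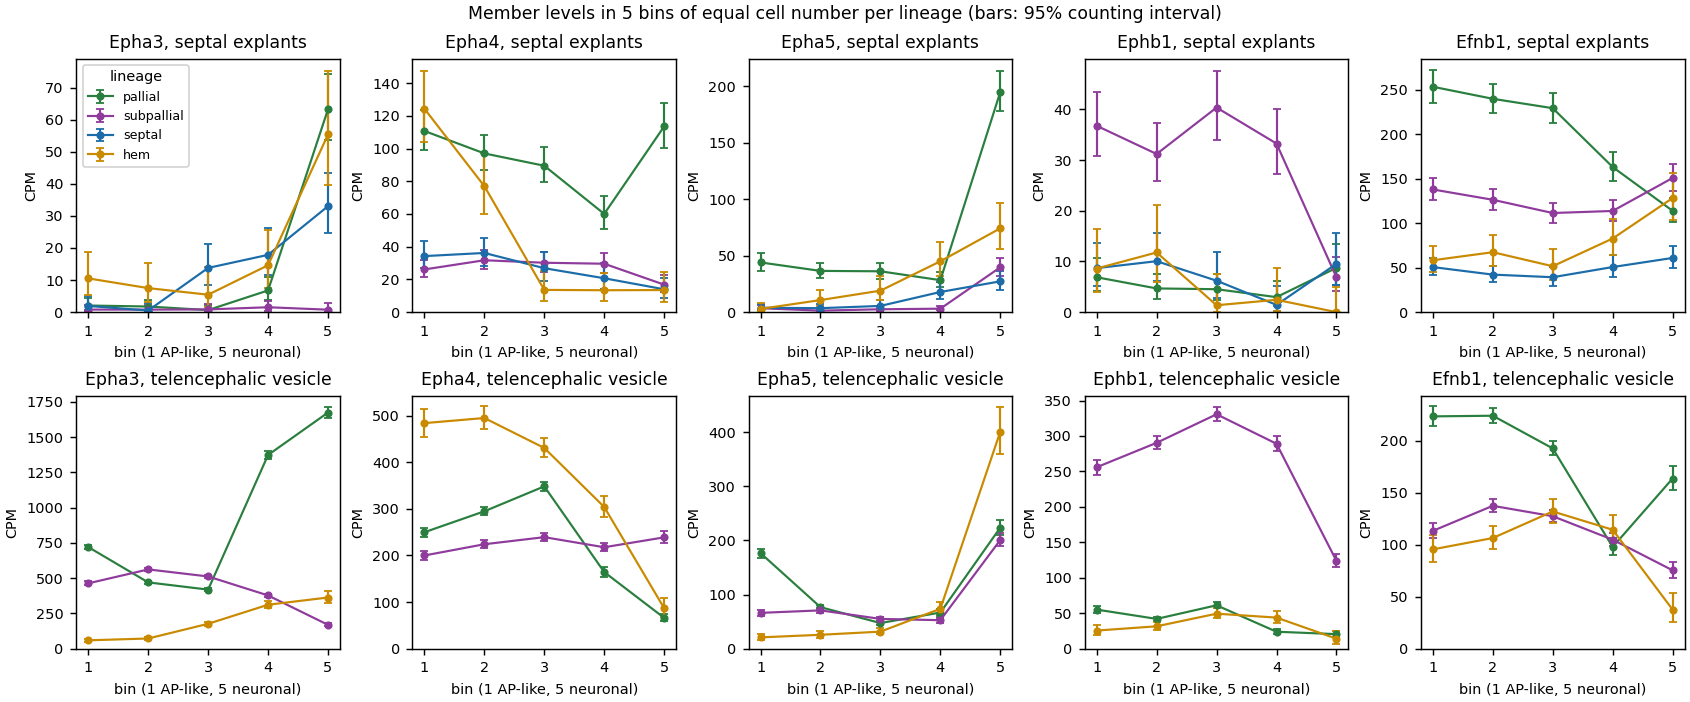
CPM of Epha3, Epha4, Epha5, Ephb1 and Efnb1 in 5 bins of equal cell number from AP-like (1) to neuronal (5) for each lineage (colours), in the septal explants (top) and the telencephalic vesicle (bottom), with 95% counting intervals. Epha5 is highest in bin 5 of each lineage, and Epha4 is lower in bin 5 than in bin 1 of the hem lineage in both libraries.

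Receptors and ligands of 1 class were often found in the same cell. Each cell was first thinned to 8000 UMIs in the explants and 3500 in the vesicle, which left out 511 and 1145 shallower cells. A UMI of an A class receptor together with one of an A class ephrin was then found in 18.3% of pallial-like, 12.3% of subpallial-like, 10.0% of septal-like APs and 28.3% of hem-like cells of the explants. In the vesicle the shares were 35.8%, 54.3%, 45.4% and 65.3%, and 77.7% (73.2 to 81.8) in LGE-like APs. For the B class the vesicle shares were 21.6% in pallial-like, 29.7% in subpallial-like and 51.6% in LGE-like APs. In erythroid-like cells of the vesicle they were 1.4% for the A class and 0.280% for the B class. Median depth moves with such shares even after thinning, and no expectation was computed from the single shares.

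The commonest pairs of single genes in hem-like cells of the vesicle were Epha4 with Efna5, in 53.5% of 404 cells, and Epha7 with Efna5, in 28.7%. In pallial glutamatergic-like neurons of the vesicle it was Epha3 with Efna5, in 44.6% of 653 cells, and in striatal-type neurons Ephb1 with Efnb2, in 31.1% of 119 cells, was the commonest pair of the B class. In LGE-like APs Epha3 with Efna5 was found in 54.1% of 386 cells and Ephb1 with Efnb2 in 27.5%.

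**Figure D5:**
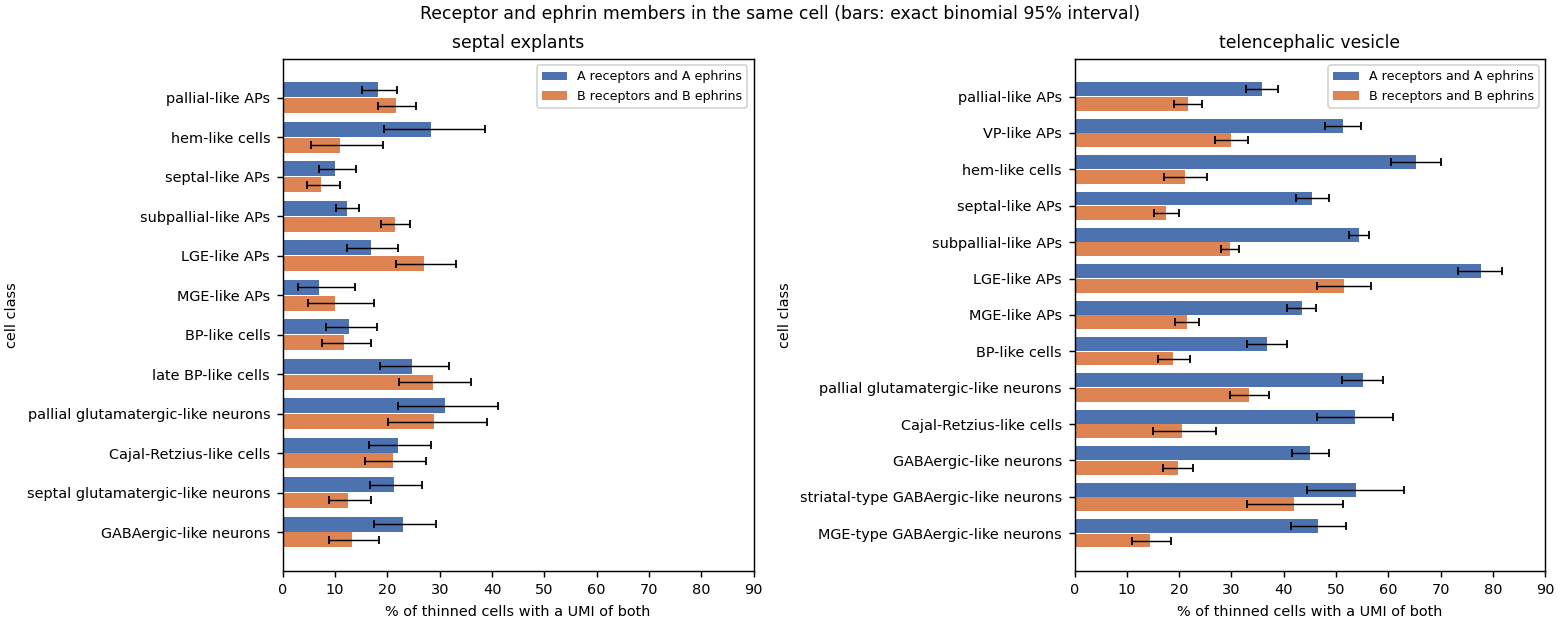
Share of thinned cells (percent, from 0) with a UMI of both an A class receptor and an A class ephrin (blue) or of both a B class receptor and a B class ephrin (orange) in each class, with exact binomial 95% intervals; the libraries were thinned to different depths and are not comparable. In the vesicle LGE-like APs have the highest share for both classes, 77.7% and 51.6%.

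The 12 other family genes had 42 tests over 10 comparisons of the explants, of which 12 were higher and 7 lower past the line, and 76 tests over 11 comparisons of the vesicle, of which 16 were higher and 13 lower. These are 45.2% and 38.2% of the tests, beside 16.7% and 15.97% of the tests of all genes over the same comparisons. A gene with few UMIs can reach the 50 UMIs needed for a test through the class where it is higher alone. Such a gene is then likely to be past the line. The shares of all genes were not matched by UMIs to this list or to the signalling list below. Whether either list exceeds genes of similar counts was therefore not tested. Efna3, an A class ephrin, had the largest ratio of the explants. It stood at 194 CPM in pallial glutamatergic-like neurons and 2.73 CPM in pallial-like APs of the explants, 70.9-fold (47.7 to 110), and the vesicle ratio was 21.0 (14.6 to 31.0). Ephb4, a receptor best known from veins, was lower in these neurons, with ratios of 0.207 (0.0421 to 0.623) and 0.0729 (0.0362 to 0.131). Efnb3 was 6.19-fold (5.37 to 7.13) higher in GABAergic-like neurons than in subpallial-like APs of the explants. In the same comparison of the vesicle Efna3 was 11.7-fold (7.62 to 18.1) higher. Epha10 was 38.8-fold (21.7 to 75.5) higher in pallial glutamatergic-like neurons than in pallial-like APs of the vesicle.

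Of 26 genes that act downstream of Eph receptors or with them, 195 tests in the explants gave 30 higher and 9 lower, and 265 in the vesicle gave 24 higher and 10 lower, which is 20% and 12.8% beside the same 16.7% and 15.97% of all genes. The kinase Fyn was 3.85-fold (3.15 to 4.68) and 4.10-fold (3.84 to 4.37) higher in pallial glutamatergic-like neurons than in pallial-like APs of the explants and the vesicle. Chn1, a Rac GTPase-activating protein needed for signalling from Epha4, was 5.67-fold (4.35 to 7.39) higher there in the explants and 2.22-fold (2.06 to 2.39) in the vesicle. Its relative Chn2 was 2.21-fold (1.29 to 3.64) and 7.38-fold (6.81 to 8.01) higher. Kalrn, a guanine nucleotide exchange factor, was 6.91-fold (6.66 to 7.17) higher in BP-like cells than in pallial-like APs of the vesicle and 2.15-fold (1.45 to 3.16) in the explants. Tiam1 was lower than in pallial-like APs of the explants, with ratios of 0.305 (0.0816 to 0.808) in pallial glutamatergic-like neurons and 0.390 (0.188 to 0.730) in BP-like cells.

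In the explants the 2 genotypes could be told apart only in cells that held reporter molecules. Among pallial-like APs, 50 cells with a tdTomato UMI had 54.8 CPM of Epha5 (39.9 to 73.3) and 201 cells with at least 3 YFP UMIs had 13.5 CPM (10.2 to 17.6). Most of the 549 pallial-like APs were in neither set, and their level was not computed on its own. In subpallial-like APs both sets were low, at 2.0 CPM (0.242 to 7.22) in 64 cells and 2.85 CPM (1.85 to 4.21) in 573 cells. Genotype, a history of Dbx1 expression and age move together in these sets and cannot be told apart.

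Across 25 clusters of the explants and 21 of the vesicle, the genes most like each member were found by the lower of the 2 Pearson r of log2(CPM + 1), among 8680 genes. These are descriptions over clusters that share a library, and the APs without a regional likeness are among these clusters. For Ephb1 they were Ano1 (r of 0.75 in the explants and 0.78 in the vesicle), Apela (0.81 and 0.71) and Tox2 (0.78 and 0.69). Epha3 was most like Coro2b (0.87 and 0.72), Epha5 most like Kif5c (0.80 and 0.74), Epha7 most like Id2 (0.67 and 0.73) and Epha4 most like Atxn7 (0.67 and 0.67). For the ephrins the leading genes were Ap1s1 for Efna2 (0.75 and 0.74), Fign for Efna5 (0.66 and 0.61), Shisa2 for Efnb1 (0.67 and 0.69) and Gnao1 for Efnb2 (0.72 and 0.85), and for Ephb2 it was Prdm2 (0.75 and 0.76). Between members, Epha3 and Epha5 had r of 0.74 and 0.60, and Efnb1 and Efnb2 0.63 and 0.60.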

How the data were processed

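Single-cell libraries of septal explants and of a telencephalic vesicle, 1 each, were analysed. The authors deposited raw UMI counts per gene and barcode, made with Cell Ranger 2.1.1 and 7.1.0 on mm10, with reporter sequences added as features. Counting of intronic reads was not stated in the sources used here. No deposited column of per-sample values was left unused (0).

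Barcodes within 3 median absolute deviations of the median mitochondrial share were kept, and doublets called by Scrublet were removed, which marked 1.10% of the explant and 5.72% of the vesicle barcodes, below the rates of 4.36% and 9.98% given to the caller. Depth ranged from 3902 to 84281 UMIs per barcode in the explants and from 500 to 207131 in the vesicle. Each library was clustered on its own with scanpy 1.11.5 (2000 variable genes, 30 components, 15 neighbours, Leiden 1.5 with leidenalg 0.10.2), without the 22 genes of the Eph and ephrin family, cell cycle genes, sex genes and reporters. Clusters were named from at least 3 markers, each in at least 5% of cells and 1.5-fold above the other clusters, and a region had to lead by 0.3 in mean z score. This naming rule was revised after the clusters were seen. The members and lists were chosen with earlier results of these data known.

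UMIs were summed per class of at least 50 cells. Ratios of CPM carry exact conditional binomial intervals, levels Poisson and shares Clopper-Pearson intervals (scipy 1.17.1, numpy 2.4.6, pandas 2.3.3, Python 3.11.15, figures with matplotlib 3.10.9), which cover counting error only. The calls past the line and the coverage of the ratio intervals were tested on simulated class sums of a vesicle comparison. Clustering, naming, doublet calls, bins and co-detection were not tested in this way. All 10 members are described. Other family and signalling genes named are some of those past the 2-fold line and among the leading 4 of a comparison by size. Where such a gene was past the line in the other library, its value there may be given although it was not among the leading 4. Alike genes are the leading 3 by the lower r among genes with at least 500 UMIs in each library. Alternatives kept doublets or all barcodes, changed the Leiden resolution (0.8 and 2.5), seed, bins (10) or genes used in clustering, thinned cells, averaged over cells, dropped the filter of 50 UMIs or asked for 2 UMIs per cell. Leaving out each cluster of a class was added after seeing the data.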

Additional observations from a re-analysis of the deposited data

Results flagged for a closer look

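For 5 pairs of a gene and a comparison the counting intervals of the libraries lay wholly on opposite sides of 1, with at least 1 library past the 2-fold line. Pairs on opposite sides of 1 that did not meet both conditions are not listed here. With 1 library each, the difference between them was not tested, and kit, software, age, dissection and cell makeup all differed and cannot be told apart.

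Epha5 in subpallial-like against pallial-like APs had a ratio of 0.0638 in the explants, between 0.0500 and 0.137 over the alternatives in clustering, filtering and scaling, and 2.16 in the vesicle, between 1.28 and 2.36. The sides therefore held under all of them. In BP-like cells against pallial-like APs the Epha5 ratio was 0.482 in the explants and 1.63 in the vesicle, but the alternatives reached 0.792 and 0.849, so both libraries were below 1 in some. Without cluster 25 of the pallial-like APs the explant ratio was 1.69, on the same side as the vesicle.

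In pallial glutamatergic-like neurons against pallial-like APs, Epha4 was at 1.60 in the explants (0.765 to 1.93) and 0.226 in the vesicle (0.200 to 0.457). Epha7 was at 2.68 (1.78 to 3.19) and 0.682 (0.661 to 0.789). Ephb1 was at 2.69 (1.36 to 4.88) and 0.534 (0.187 to 0.776). The explant class held 101 cells and the vesicle class 666 cells, and only 20 UMIs stand behind Ephb1 in the explant neurons.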

How the results depend on the processing

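Of 197 counts of members past the 2-fold line recomputed under other settings of clustering, filtering and scaling, 173 were within 1.5 times. In the explants the count was 2 for hem-like cells at Leiden 2.5, 1 for LGE-like against MGE-like APs with the Eph genes kept, and for BP-like cells 1 with all barcodes, 5 at Leiden 2.5, 0 with another seed and 1 with the Eph genes kept. For septal glutamatergic-like neurons it was 2 with doublets kept, at Leiden 0.8 or with cell cycle genes kept, and 3 with all barcodes. For Cajal-Retzius-like cells it was 2 after thinning. In the vesicle it was 2 for subpallial-like APs with all barcodes or cell cycle genes kept, 5 for septal-like APs at Leiden 0.8, with the Eph genes kept or after thinning, and for hem-like cells 2 with doublets kept and 0 at Leiden 2.5 or with cell cycle genes kept. It was 4 for VP-like APs with doublets or cell cycle genes kept, 2 for Cajal-Retzius-like cells with all barcodes, and for striatal-type neurons 1 with doublets kept and 0 with all barcodes. The cause was not tested.

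Leaving out 1 cluster gave ranges in the explants of 4 to 5 for subpallial-like and septal-like APs, 3 to 5 for hem-like cells, 0 to 1 for BP-like cells, 5 to 6 for pallial and 1 to 4 for septal glutamatergic-like neurons, 2 to 2 for both GABAergic comparisons and 2 to 4 for Cajal-Retzius-like cells. In the vesicle they were 2 to 4 for subpallial-like APs and hem-like cells, 3 to 6 for septal-like APs, 2 to 2 for VP-like APs, 5 to 6 for LGE-like APs, 3 to 4 for BP-like cells, 4 to 5 for pallial neurons, and 2 to 3 and 3 to 4 for GABAergic-like neurons against subpallial-like APs and pallial neurons.

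Log2 ratios changed sign for Epha5 in explant BP-like cells without cluster 25 (0.76, against -1.86 without cluster 8) and Epha3 in explant Cajal-Retzius-like cells without cluster 9 (-0.14, against 1.73 without cluster 21). In the vesicle they did so for Epha3 in subpallial-like APs with doublets kept (-0.21), Efna5 in pallial neurons with all barcodes (-0.20), Epha3 in Cajal-Retzius-like cells with another seed (-0.032) or the Eph genes kept (-0.24), Efnb1 there at Leiden 2.5 (0.18), and Ephb1 in striatal-type neurons with cell cycle genes kept (-1.87). LGE-like against MGE-like APs had no value in 5 alternatives of each library, and 3 vesicle comparisons had none at Leiden 0.8.

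No paired analysis was possible because each condition had 1 library. In the explants Epha3, at 9.06 CPM over all kept cells, reached 50 UMIs in only 4 of 10 comparisons. It was past the line in all 4, which it entered through the class where it was higher.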

Other observations

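Clusters that the markers did not name also held these genes. In the explants, a cluster of 268 cells led by Tfap2e and Calb2 had 114 CPM of Efna5, 253 CPM of Efnb1, 121 CPM of Efnb2 and 89.1 CPM of Epha5. A UMI of an A class receptor and of an A class ephrin was found together in 39.8% of its 261 thinned cells, against 17.3% of all named neural cells. In the vesicle, a cluster of 103 cells led by Onecut3 and Onecut1 had 1030 CPM of Epha3 and 354 CPM of Epha5. These clusters entered no comparison and were chosen after their values were seen.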
